A study of Homo sapiens with 6 samples.

Results

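Golgi glycosyltransferases are the enzymes that build the sugar chains of secreted and membrane proteins and of glycolipids. Their transcripts were compared here between control and Ephexin1 knockdown H1299 cells. The genes were chosen by symbol, from the families GALNT, C1GALT1, GCNT, MGAT, A4GALT, B3GALT, B4GALT, B3GNT, B4GALNT, FUT, ST3GAL, ST6GAL, ST6GALNAC and ST8SIA, and 87 of the 26255 genes listed matched. The libraries were made from total RNA of NCI-H1299, an established human lung cancer cell line, grown in RPMI-1640 with serum. The 3 shControl libraries (control cells) came from cells given a pSilencer2.1-U6 vector with a control shRNA, and the 3 shEphexin1 libraries (knockdown cells) from cells given that vector with an shRNA against Ephexin1 (gene symbol NGEF), a guanine nucleotide exchange factor for small GTPases. The labels name the neo form of the vector and the methods of the study the hygro form. The study described its knockdown cells as stable clones, and the column names of the 3 shEphexin1 libraries share a stem, so they may come from 1 clone. No source used here states that the replicates were separate cultures. The p-values therefore measure the spread between these libraries, which may be technical.

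Most chains are built in the Golgi by type II membrane enzymes, each of which moves a sugar from a nucleotide donor to a defined acceptor. GALNT enzymes start mucin-type O-glycans by placing N-acetylgalactosamine (GalNAc) on serine or threonine. C1GALT1 and GCNT enzymes such as GCNT1 turn that sugar into cores and branches. MGAT enzymes add the N-acetylglucosamine (GlcNAc) antennae of N-glycans, and galactosyltransferases, B3GNT, fucosyltransferases and sialyltransferases extend and cap all these chains. The families are redundant, with several genes for nearly every linkage, and tumours are known for altered O-glycans, N-glycan branching and sialylation.

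Of the 87 genes, 64 were tested and 23 were too low. Levels are FPKM, fragments scaled for transcript length and for library size, and can be compared between genes because they are divided by length. A gene was tested where it reached 0.1 FPKM in at least 3 of the 6 libraries, with limma on log2(FPKM + 0.1). Fold changes below are on that scale, shEphexin1 over shControl, and understate the difference of low genes. Where 3 values are given for a group, they are those of replicates 1, 2 and 3. A gene was called where its Benjamini-Hochberg adjusted p did not exceed 0.025 and it differed by 2-fold or more. A comparison of 3 libraries with 3 cannot give an exact permutation p below 0.1, so the calls rest on limma's estimate of the spread across all genes.

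NGEF, the target of the shRNA, measured 13.3, 11.7 and 16.4 FPKM in control cells against 9.81, 8.25 and 10.5 FPKM in knockdown cells. The groups did not overlap, but the log2 fold change of -0.53 ± 0.163 (SE) was not called (limma adjusted p = 0.103). It was not called in any of 20 alternative fits: its fold difference stayed below 2 in all of them, while its adjusted p was between 0.0017 and 0.268, and was lowest with the GC and length correction and the replicate block. The study checked the knockdown in its stable clones by western blot, a measure of protein, which these FPKM do not cover. The mesenchymal gene VIM stood between 1979 and 2670 FPKM. The epithelial keratin genes KRT18 and KRT8 did not overlap between groups: KRT18 stood at 67.6 to 109 FPKM in control cells and 36.3 to 54.7 FPKM in knockdown cells, and KRT8 at 5.13 to 8.44 and 2.65 to 3.48 FPKM. Their part in the results below was not tested. EPCAM and KRT19 stayed at or below 0.22 FPKM. Of the immune genes, PTPRC and CD3E were listed at 0 in all 6 libraries, while CD68, which is not limited to immune cells, stood at 37.8 to 71.1 FPKM. The endothelial genes PECAM1, CDH5 and VWF reached at most 0.28 FPKM. Of the fibroblast genes, LUM was listed at 0 in all libraries, PDGFRB reached 0.0621 FPKM, DCN ran from 0.268 to 0.693 FPKM, and COL1A1 from 0.0813 to 0.124 FPKM in control cells and 0.169 to 0.386 FPKM in knockdown cells. Replicate 2 of both groups differed from the other libraries in its relation to GC content. Its deviations from the group mean of each gene fell with GC (Spearman correlation across genes -0.69 and -0.76), against 0.33 to 0.66 in the other 4 libraries. The deviations within a group cancel out for each gene, so these correlations are not independent of each other. Calls are therefore also given for replicates 1 and 3 alone.

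Of the 64 tested genes, GALNT6 and GALNT18 rose and ST8SIA5 fell. That is 3 genes, or 4.69%, against 1.89% of all 16020 genes tested (303 genes). By direction, 3.12% of the glycosyltransferase genes were called higher against 0.893% of all genes, and 1.56% were called lower against 0.999%. A further 3 genes had an adjusted p between 0.025 and 0.05 or a fold difference below 2 (B4GALT1, B4GALT6 and GCNT1), so that 6 genes (9.38%) reached an adjusted p of 0.05 or less, against 7.01% of all genes. The 3 shEphexin1 values all lay above the 3 shControl values in 12 of 64 genes (18.8%, against 12.8% of all genes) and all below in 8 (12.5%, against 15.4%). Among the 12 is GALNT12, which passed the filter through its shEphexin1 libraries alone. GCNT3 and ST8SIA6 also lay wholly lower in shEphexin1, but they were under the filter and are not in the 8. An unadjusted p of at most 0.05 was found for 18 genes (28.1%, against 23.3%). The median log2 fold change was 0.05 over these genes and -0.01 over all genes tested, and 35 of the 64 lay above 0. The summed FPKM of all 87 genes was 616 ± 56.1 (SD, n = 3) in shControl and 614 ± 57.9 (SD, n = 3) in shEphexin1, so that the totals differed by less than the spread between libraries. Replicate 2 had the lowest total in both groups (553 and 549). Over the whole table the summed FPKM ran from 561335 to 651441 in shControl and from 516079 to 587222 in shEphexin1. The total of the 87 genes was not scaled to that sum. In bulk RNA, less RNA per cell and fewer expressing cells cannot be told apart.

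**Figure D1:**
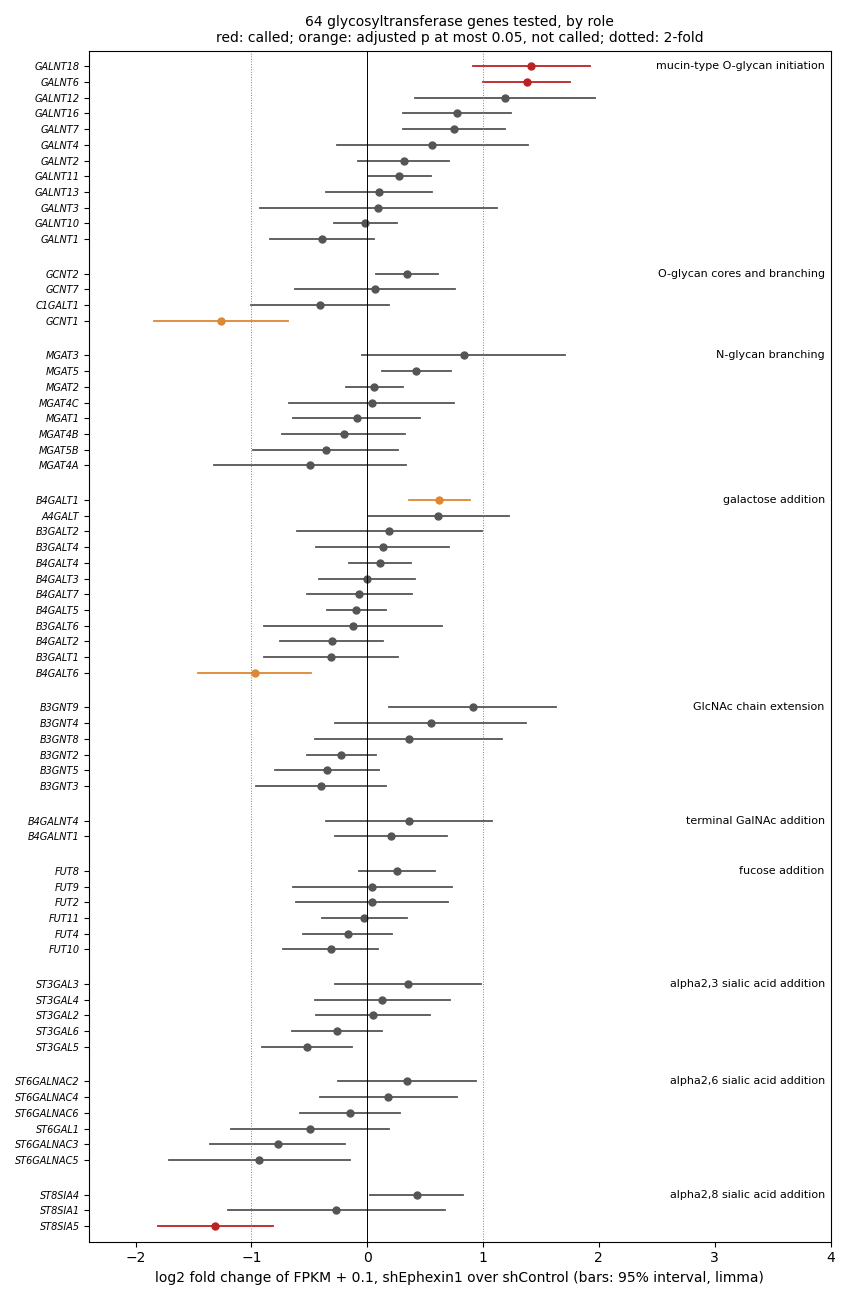
Log2 fold change of FPKM + 0.1 (horizontal axis, shEphexin1 over shControl, with 95% intervals from limma) for the 64 tested genes, grouped by role. The 3 called genes are red (GALNT18 and GALNT6 to the right of the dotted 2-fold line, ST8SIA5 to the left of the other), and GCNT1, B4GALT6 and B4GALT1, with an adjusted p up to 0.05 but no call, are orange.

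The genes that start mucin-type O-glycans held both called increases. Of 17 GALNT genes, 12 were tested, 10 of them had a log2 fold change above 0 (48.9% of all genes tested did), and 6 had shEphexin1 libraries that all lay above the shControl libraries (12.8% of all genes). None lay wholly below (15.4% of all genes). The median log2 fold change of the 12 was 0.44. GALNT12 passed the filter through its shEphexin1 libraries alone, and without it 9 of 11 lay above 0, 5 did not overlap, and the median was 0.31. Among these 9 is GALNT4, whose value is uncertain for a reason given below. GALNT6, which belongs to the same subfamily as GALNT3, stood at 2.2, 1.71 and 1.86 FPKM in control cells against 5.68, 4.69 and 5.09 FPKM in knockdown cells. Every shEphexin1 value was more than 2 times the highest shControl value. Its means were 1.93 ± 0.253 and 5.15 ± 0.498 FPKM (SD, n = 3 each), and its log2 fold change was 1.38 ± 0.161 (SE, limma adjusted p = 0.00549). GALNT6 lies on GRCh37 chr12:51745031-51786651, and its first part overlaps SLC4A8 on the other strand, whose own log2 fold change was -0.12 (limma adjusted p = 0.689). GALNT6 was called in 16 of 20 alternative fits. The call was lost on leaving out shControl 1 (limma adjusted p = 0.0297), shControl 3 (0.0285), shEphexin1 1 (0.0427) or shEphexin1 3 (0.0305).

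GALNT18, a less studied member of the family, stood at 1.5, 1.2 and 1.86 FPKM in control cells against 3.87, 3.64 and 5.16 FPKM in knockdown cells. Again the groups were far apart, with the lowest shEphexin1 library near 2 times the highest shControl library. The means were 1.52 ± 0.328 and 4.22 ± 0.819 FPKM (SD, n = 3 each), and the log2 fold change was 1.42 ± 0.216 (SE, limma adjusted p = 0.0139). The gene spans chr11:11292424-11643552, with the short gene CSNK2A3 inside it on the same strand at 0.281 FPKM or less in every library. GALNT18 was called in 15 of 20 alternative fits, and kept its sign in all. The call was lost on leaving out shControl 1 (limma adjusted p = 0.0787), shControl 2 (0.0331), shControl 3 (0.0292), shEphexin1 1 (0.067) or shEphexin1 3 (0.0535).

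GALNT7, which prefers peptides that already carry GalNAc, measured 7.99, 9.80 and 6.35 FPKM in control cells against 13.2, 15.6 and 11.7 FPKM in knockdown cells. GALNT16 measured 1.74, 1.33 and 2.10 FPKM in control cells against 3.13, 2.65 and 3.17 FPKM in knockdown cells. Neither pair of groups overlapped, and neither gene passed the test in the fit without a covariate. The log2 fold changes were 0.75 ± 0.189 (SE, limma adjusted p = 0.0596) for GALNT7 and 0.77 ± 0.201 (SE, limma adjusted p = 0.0641) for GALNT16. With a term for replicate 2, the limma adjusted p was 0.00225 for GALNT7 and 0.00616 for GALNT16. The log2 fold changes were the same in that fit and missed the fold threshold, so neither gene was called. GALNT12 was at the edge of measurement, with 0.0373, 0.0386 and 0 FPKM in control cells against 0.154, 0.215 and 0.183 FPKM in knockdown cells. Its log2 fold change of 1.19 ± 0.331 (SE) was not called (limma adjusted p = 0.078). GALNT11 was the sixth gene without overlap, at 14.7 ± 1.28 and 17.8 ± 0.997 FPKM (SD, n = 3 each). Its log2 fold change of 0.28 was no larger than the median of its nearest tested genes, 0.34.

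The most abundant GALNT transcripts had no call. GALNT10, the highest of the family, stood at 28.7, 27.3 and 30.6 FPKM in control cells against 29.7, 25.3 and 30.8 FPKM in knockdown cells, a log2 fold change of -0.02 (95% interval -0.29 to 0.26). GALNT1 and GALNT2, the broadly expressed isoenzymes, had estimates of opposite sign: GALNT1 averaged 25.2 ± 3.11 and 19.5 ± 4.92 FPKM (SD, n = 3 each) and GALNT2 21.1 ± 2.47 and 26.4 ± 4.81 FPKM (SD, n = 3 each). The groups overlapped for both genes, and neither was called (limma adjusted p = 0.275 and 0.319). The summed FPKM of the 17 GALNT genes ran from 110.0 to 112.1 in shControl and from 125.8 to 128.6 in shEphexin1. Within that sum the share of GALNT6, GALNT7, GALNT16 and GALNT18 was 11.9% ± 0.856 in shControl and 20.3% ± 0.731 in shEphexin1 (SD, n = 3 each). These 4 genes were put together after their values were seen, so the share is a description. GALNT4 is uncertain, since it shares its sequence with the readthrough gene POC1B-GALNT4: GALNT4 was listed at 1.02 to 2.54 FPKM in control cells against 2.21 to 3.34 FPKM in knockdown cells, and POC1B-GALNT4 at 0.865 to 2.40 FPKM and 9.42e-04 to 0.742 FPKM. The log2 fold change was 0.56 for GALNT4 and -3.05 ± 0.832 (SE, limma adjusted p = 0.0735) for POC1B-GALNT4. GALNT4 is part of the GALNT counts, median and sum above, and POC1B-GALNT4 is not.

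**Figure D2:**
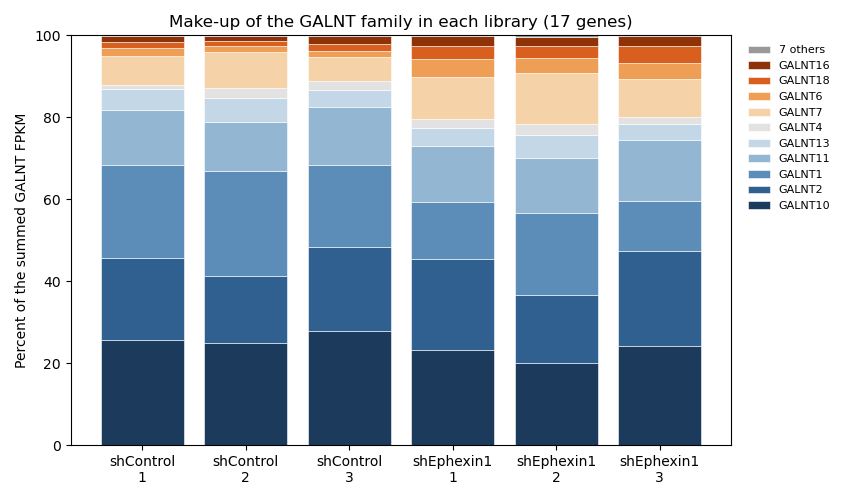
Share of each GALNT gene in the summed FPKM of the 17 GALNT genes (vertical axis, percent), 1 bar per library. The orange to brown segments, GALNT7, GALNT6, GALNT18 and GALNT16, make up 11.1% to 12.8% of the bar in the shControl libraries and 19.7% to 21.1% in the shEphexin1 libraries.

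The genes for O-glycan cores and branches had no call. GCNT1, which adds the GlcNAc branch of core 2 structures, measured 0.781, 0.837 and 0.612 FPKM in control cells against 0.314, 0.216 and 0.227 FPKM in knockdown cells. The shControl libraries were all higher, and the log2 fold change was -1.26 ± 0.248 (SE, limma adjusted p = 0.0307), past the fold threshold but not that on p. GCNT1 was called with a term for replicate 2 (limma adjusted p = 0.0107), and in 5 other of the 19 alternative fits that tested it, but not in replicates 1 and 3 alone (0.0642). The median log2 fold change of its 50 nearest tested genes was -0.32. In a further fit, the median deviation of those 50 genes from their own means over the 6 libraries was subtracted in each library. There GCNT1 was at -0.93 ± 0.243 (SE, limma adjusted p = 0.0555), without a call. GCNT1 lies on the plus strand at chr9:79034766-79266119, and its distal end overlaps the gene PRUNE2 on the minus strand. PRUNE2 was at 2.54, 2.95 and 2.17 FPKM in control cells against 0.313, 0.267 and 0.353 FPKM in knockdown cells (log2 fold change -2.69 ± 0.207, SE, limma adjusted p = 0.00112). The library kit was stranded, but no source used here says whether the FPKM estimate used strand, and without strand the reads of the overlap cannot be told apart. GCNT2, the I-branching enzyme, was placed in this group by its symbol and was the highest of it. It measured 12.8, 13.7 and 12.7 FPKM in control cells against 15.9, 18.4 and 15.6 FPKM in knockdown cells. All 3 shEphexin1 libraries were above shControl, and the log2 fold change of 0.34 ± 0.116 (SE) was not called (limma adjusted p = 0.13). C1GALT1, the core 1 synthase, averaged 9.17 ± 2.17 and 6.97 ± 2.16 FPKM (SD, n = 3 each) with overlapping groups. GCNT3 was under the filter, at 0.213, 0.156 and 0.087 FPKM in control cells against 0, 0.0628 and 0 FPKM in knockdown cells.

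None of the 8 N-glycan branching genes was called. MGAT4B, MGAT1 and MGAT2 were among the most abundant of all 87 genes, while MGAT3, MGAT4A and MGAT4C averaged less than 1 FPKM. MGAT4B, which adds a GlcNAc antenna to the alpha-1,3 arm, was the highest glycosyltransferase gene, at 96.8, 74.8 and 116 FPKM in control cells against 90.4, 61.0 and 99.7 FPKM in knockdown cells. The groups overlapped and replicate 2 was lowest in both, with a log2 fold change of -0.20 (95% interval -0.73 to 0.32). The first part of MGAT4B overlaps SQSTM1 on the other strand, where reads cannot be told apart without strand. MGAT1, which opens the pathway to complex chains, averaged 35.3 ± 7.60 and 33.3 ± 8.27 FPKM, and MGAT2, which adds the second antenna, 33.6 ± 2.31 and 35.0 ± 1.88 FPKM (SD, n = 3 each). MGAT5, which makes the beta-1,6 branch, stood at 5.39, 4.85 and 5.45 FPKM in control cells against 7.59, 6.63 and 6.92 FPKM in knockdown cells. These groups did not overlap, and the log2 fold change of 0.42 ± 0.127 (SE) was not called (limma adjusted p = 0.0961). MGAT3, the bisecting enzyme, was at 0.264 FPKM or less in every library.

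No galactosyltransferase gene was called, and B4GALT1 and B4GALT6 had the lowest adjusted p-values of the group. They are set beside their closest paralogs here, without a test of the difference between genes. B4GALT1, the main enzyme adding galactose to GlcNAc ends of N-glycans, measured 7.85, 9.04 and 8.85 FPKM in control cells against 13.3, 13.2 and 13.3 FPKM in knockdown cells. The shEphexin1 libraries were nearly identical and all higher. The log2 fold change of 0.62 ± 0.113 (SE, limma adjusted p = 0.0231) passed the threshold on p, but the fold difference was below 2, so the gene was not called. Its paralogs B4GALT2, B4GALT3 and B4GALT4 had overlapping groups and log2 fold changes of -0.31, 0.00 and 0.11. B4GALT2, the highest galactosyltransferase gene, measured 25.0, 18.7 and 28.2 FPKM in control cells against 19.3, 16.0 and 22.5 FPKM in knockdown cells. In the summed FPKM of these 4 genes, B4GALT1 made up 16.3% ± 2.63 in shControl and 24.6% ± 2.32 in shEphexin1 (SD, n = 3 each).

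B4GALT5 and B4GALT6 both encode lactosylceramide synthases, which add galactose to glucosylceramide. B4GALT6 was at 20.9, 27.7 and 17.3 FPKM in control cells against 10.4, 13.5 and 9.34 FPKM in knockdown cells. All shEphexin1 libraries were below all shControl libraries, and the log2 fold change was -0.97 ± 0.208 (SE, limma adjusted p = 0.0374), outside both thresholds. B4GALT5 was at 15.1, 15.9 and 15.6 FPKM in control cells against 15.6, 13.5 and 14.7 FPKM in knockdown cells. These groups overlapped, and the 95% interval of the log2 fold change was -0.35 to 0.16. B4GALT6 was therefore 58.0% ± 5.44 of the summed FPKM of this pair in shControl and 43.0% ± 6.11 in shEphexin1 (SD, n = 3 each), with no overlap.

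The table of promoters from RefSeq (GRCh38.p14) held 107 entries for 62 of the 87 genes, each of 300 bases around a transcription start. Of the 6 genes with an adjusted p up to 0.05, B4GALT1 and GCNT1 had an entry, and their first listed starts are shown because these 2 genes differed in opposite directions. Each was found once in GRCh37, at chr9:33167285-33167584 on the minus strand for B4GALT1, and at chr9:79008535-79008834 on the plus strand for GCNT1. The GCNT1 window lies upstream of the gene start given above, which comes from another annotation. Both are printed in the direction of transcription, and the capitals mark matches to the searched motifs on either strand.
B4GALT1: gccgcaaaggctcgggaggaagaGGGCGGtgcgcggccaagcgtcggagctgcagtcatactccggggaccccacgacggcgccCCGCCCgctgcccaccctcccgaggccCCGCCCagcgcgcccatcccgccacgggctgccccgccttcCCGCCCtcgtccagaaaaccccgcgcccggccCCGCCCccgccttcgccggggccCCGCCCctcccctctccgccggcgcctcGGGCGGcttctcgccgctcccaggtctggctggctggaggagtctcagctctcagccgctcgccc
GCNT1: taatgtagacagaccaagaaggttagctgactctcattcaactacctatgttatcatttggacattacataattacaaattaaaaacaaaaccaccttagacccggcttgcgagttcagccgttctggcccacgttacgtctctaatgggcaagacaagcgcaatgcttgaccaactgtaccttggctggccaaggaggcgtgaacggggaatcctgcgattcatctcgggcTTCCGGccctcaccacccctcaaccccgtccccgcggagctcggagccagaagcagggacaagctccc

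The B4GALT1 promoter was 78.3% G and C and held 7 GC boxes (GGGCGG or CCGCCC). The GCNT1 window was 52.3% G and C and held no GC box and 1 ETS core (CCGGAA, here read on the other strand). GC boxes were found in 60.7% of the 107 promoters of glycosyltransferase genes and in 45.0% of all 35116 promoters of the table. CCAAT boxes (CCAAT) were found in 32.7% against 34.6%, TATA boxes (TATAAA) in 0.935% against 11.5%, AP-1 sites (TGACTCA) in 0.935% against 4.95%, E-boxes (CACGTG) in 5.61% against 7.26%, and ETS cores in 15.9% against 17.2%. Both strands were searched, and no motif contains another. The median share of G and C was 65.7% in the promoters of glycosyltransferase genes and 58.7% in all. A match is a description of the letters in this window.

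The genes that extend chains with GlcNAc or add terminal GalNAc had no call. B3GNT2, the main polylactosamine enzyme, was the highest of the 6 tested B3GNT genes, at 8.27, 8.83 and 8.02 FPKM in control cells against 6.43, 7.80 and 7.29 FPKM in knockdown cells. The shEphexin1 libraries were all slightly lower, by a log2 fold change of -0.22 (95% interval -0.52 to 0.07). B3GNT9 pointed the other way, from 2.33 ± 0.783 to 4.42 ± 1.28 FPKM (SD, n = 3 each), without overlap and without a call (log2 fold change 0.91 ± 0.308, SE, limma adjusted p = 0.13). B4GALNT1, which makes the gangliosides GM2 and GD2, was the higher of the 2 tested B4GALNT genes, at 12, 9.09 and 14.0 FPKM in control cells against 13.9, 10.6 and 15.8 FPKM in knockdown cells. Those groups overlapped.

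The fucosyltransferases had no call: 6 of 11 were tested, and their log2 fold changes ran from -0.31 to 0.26. FUT11, the highest, was at 15.7, 14.8 and 17.7 FPKM in control cells against 19.3, 13.7 and 14.8 FPKM in knockdown cells, with a log2 fold change of -0.03 (95% interval -0.39 to 0.34). FUT8, the core fucosyltransferase of N-glycans, averaged 10.4 ± 1.39 and 12.4 ± 1.07 FPKM (SD, n = 3 each). Both FUT4 and FUT9 make Lewis x. FUT4 averaged 3.84 FPKM in control cells against 3.41 FPKM in knockdown cells, and FUT9 3.08 against 3.17 FPKM. The near-identical genes FUT3, FUT5 and FUT6 were under the filter.

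Sialyltransferases cap the chains, and the call among them was in the alpha-2,8 group. ST8SIA5, which adds sialic acid to the sialic acid of complex gangliosides, stood at 3.97, 3.85 and 4.51 FPKM in control cells against 1.89, 1.17 and 1.82 FPKM in knockdown cells. The lowest shControl library was about 2 times the highest shEphexin1 library. The means were 4.11 ± 0.351 and 1.63 ± 0.4 FPKM (SD, n = 3 each), and the log2 fold change was -1.31 ± 0.211 (SE, limma adjusted p = 0.0166). The gene lies at chr18:44247784-44339220, and the median log2 fold change of its 50 nearest tested genes was -0.45. With the median deviation of those genes subtracted in each library, the log2 fold change was -0.91 ± 0.260 (SE) and the call was lost (limma adjusted p = 0.0713). It was also lost on leaving out shControl 1 (limma adjusted p = 0.0867), shControl 2 (0.0393), shControl 3 (0.0676), shEphexin1 1 (0.0546) or shEphexin1 3 (0.0468). ST8SIA4, a polysialyltransferase and the highest of this group, was at 6.79, 6.78 and 5.38 FPKM in control cells against 8.39, 10.1 and 7.15 FPKM in knockdown cells. Its groups did not overlap in the opposite direction, and its log2 fold change of 0.43 ± 0.172 (SE) was not called (limma adjusted p = 0.194). ST8SIA1, the GD3 synthase, averaged 0.334 and 0.240 FPKM.

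The alpha-2,3 and alpha-2,6 sialyltransferases had no call. ST3GAL2, the highest of the ST3GAL genes, was at 9.83, 7.58 and 11 FPKM in control cells against 10.2, 7.50 and 11.9 FPKM in knockdown cells. ST3GAL5, which makes GM3, the entry point of the gangliosides, was at 2.43, 2.57 and 2.10 FPKM in control cells against 1.68, 1.70 and 1.45 FPKM in knockdown cells. Of the 5 tested ST3GAL genes only ST3GAL5 lay wholly lower, with a log2 fold change of -0.52 ± 0.166 (SE, limma adjusted p = 0.11). ST6GALNAC6 was the highest sialyltransferase gene, at 41.3, 30.1 and 42.6 FPKM in control cells against 36.5, 27.5 and 38.6 FPKM in knockdown cells, with overlap. ST6GALNAC3 averaged 2.60 ± 0.391 and 1.52 ± 0.502 FPKM and ST6GALNAC5 0.223 ± 0.0693 and 0.0683 ± 0.0313 FPKM (SD, n = 3 each). Both lay wholly lower in shEphexin1 without passing the test (limma adjusted p = 0.116 and 0.148). ST6GAL1, the enzyme that sialylates N-glycans in alpha-2,6 linkage, was low throughout, at 0.235 to 0.524 FPKM.

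**Figure D3:**
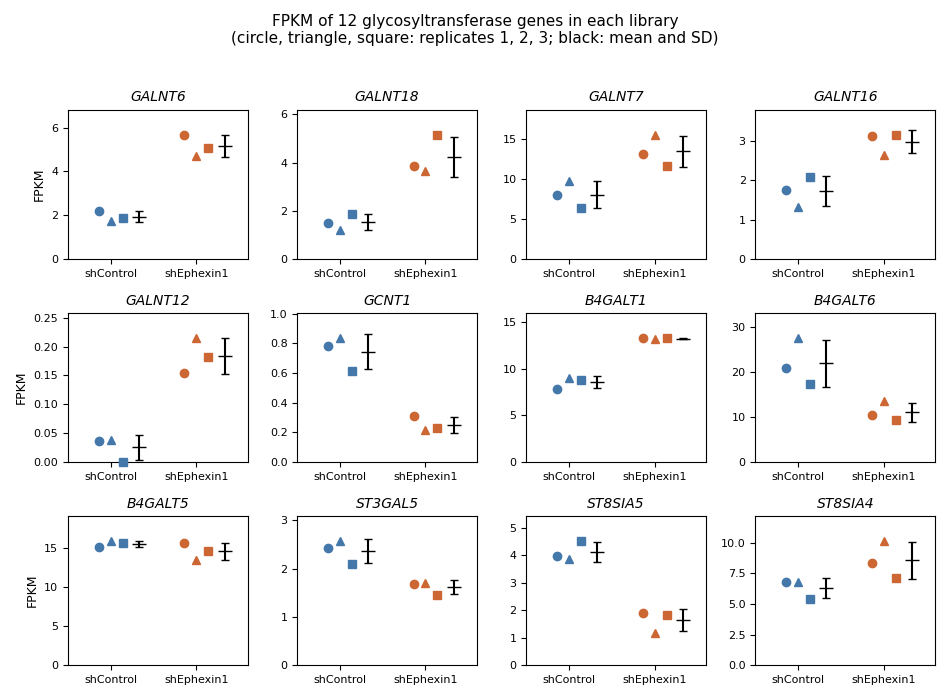
FPKM (vertical axes, linear and starting at 0) of 12 glycosyltransferase genes in each library, with circles, triangles and squares for replicates 1, 2 and 3 and the mean ± SD of each group in black. The 12 genes were chosen with their values known. The groups overlap for B4GALT5 and are apart for the other 11 genes, among them GALNT6 (1.71 to 2.2 FPKM against 4.69 to 5.68 FPKM) and ST8SIA5 (3.85 to 4.51 FPKM against 1.17 to 1.89 FPKM). Of all 64 tested genes, 12 lay wholly higher (18.8%, against 12.8% of all genes) and 8 wholly lower (12.5%, against 15.4%).

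The 23 genes under the filter were at or near 0 in every library. GALNT5, GALNT9, GALNT14, B3GNT6, GCNT4, FUT5 and ST8SIA2 were listed at 0 in all 6 libraries. The other 16 had a value above 0 in some library and were GALNT8, GALNT15, GCNT3, B3GALT5, B3GNT7, B4GALNT2, B4GALNT3, FUT1, FUT3, FUT6, FUT7, ST3GAL1, ST6GAL2, ST6GALNAC1, ST8SIA3 and ST8SIA6. The highest of these values was 0.395 FPKM, for ST8SIA6, which was at 0.316, 0.395 and 0.0696 FPKM in control cells against 0, 0.0664 and 0 FPKM in knockdown cells. At the other end, 53 genes averaged at least 1 FPKM and 21 at least 10 FPKM over the 6 libraries. How many reads stand behind these values is unknown, since the files give FPKM alone.

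The genes on chromosome 18 lay in a stretch in which most neighbours were lower in shEphexin1. The median log2 fold change of the 50 nearest tested genes was -0.45 around B4GALT6, the same as around ST8SIA5, and -0.47 around GALNT1. After subtraction of the neighbours' median deviation in each library, B4GALT6 was at -0.51 ± 0.141 (SE, limma adjusted p = 0.0664). GALNT1 went from -0.39 to 0.10. C1GALT1 on chromosome 7 had neighbours at -0.54, and its value went from -0.41 to 0.06. GALNT11, also on chromosome 7, stood at 0.28 among neighbours at 0.34. ST8SIA1 on chromosome 12 had neighbours at -0.63. The called increases did not follow their neighbours: those of GALNT6 lay at -0.22, and its fold change after subtraction was 1.63 ± 0.136 (SE, limma adjusted p = 0.00124), and those of GALNT18 lay at 0.00, with 1.37 ± 0.245 (SE, limma adjusted p = 0.0175).

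**Figure D4:**
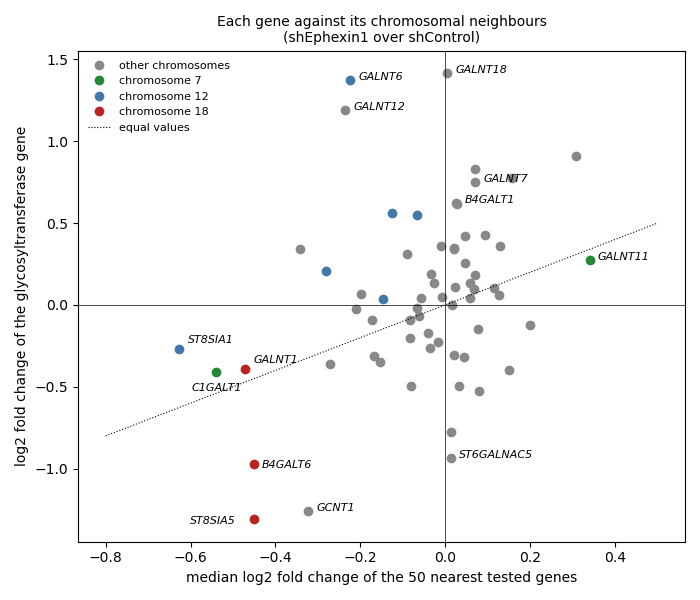
Log2 fold change of each tested glycosyltransferase gene (vertical axis) against the median log2 fold change of its 50 nearest tested genes on the same chromosome (horizontal axis), with the dotted line at equal values. The 3 genes on chromosome 18 (red) have neighbours at -0.47 to -0.45, while GALNT6 and GALNT18 lie far above the line.

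In replicates 1 and 3 alone, the same 3 genes were called, with log2 fold changes of 1.37 for GALNT6, 1.37 for GALNT18 and -1.15 for ST8SIA5 (limma adjusted p = 0.00563, 0.00971 and 0.00787). GALNT7 had an adjusted p of 0.0161 and GALNT16 of 0.0402 by limma in those libraries, with log2 fold changes of 0.79 and 0.69 that missed the fold threshold. Replicate 2 alone gives 1 library a group and no test.

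Other genes of glycosylation were set beside these in 6 lists, for sugar nucleotide synthesis, sugar nucleotide transport, N-glycan transfer and trimming, other transferases, sialic acid removal or modification, and the conserved oligomeric Golgi complex with related Golgi proteins. Of 76 symbols, 72 were in the table and 65 genes were tested. None was called by limma (1.89% of all genes were). At an unadjusted p of at most 0.05 there were 13 (20.0%, against 23.3% of all genes), and 4 (6.15%, against 7.01%) reached an adjusted p of 0.05 or less. In 9 genes (13.8%, against 12.8%) the shEphexin1 libraries all lay higher and in 8 (12.3%, against 15.4%) all lower. CMAS, the nuclear enzyme that activates sialic acid to CMP-sialic acid for all sialyltransferases, was at 25.2, 25.2 and 22.0 FPKM in control cells against 14.0, 11.6 and 12 FPKM in knockdown cells. The groups were well apart, and the log2 fold change of -0.94 ± 0.123 (SE, limma adjusted p = 0.00823) missed the fold threshold alone. CMAS lies at chr12:22199152-22218608, and its 50 neighbours had a median of -0.61. Its end overlaps ST8SIA1 on the other strand, where reads cannot be told apart without strand.

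Of the 20 genes of sugar nucleotide synthesis, all tested, 6 had estimates above 0 and 14 below. Of all genes tested, 48.9% had an estimate above 0. UAP1, which makes UDP-GlcNAc, averaged 67.9 ± 1.81 and 93.9 ± 4.61 FPKM (SD, n = 3 each, log2 fold change 0.47, limma adjusted p = 0.0306). Of the 10 Golgi sugar nucleotide transporters, 6 lay above 0, with SLC35C1, the GDP-fucose transporter, at 0.55 (limma adjusted p = 0.209). Of 15 tested genes of N-glycan transfer and trimming, 12 lay above 0, with MAN2A2, an alpha-mannosidase of the Golgi, at 0.57 (limma adjusted p = 0.0362). All 5 tested transferases outside the symbol rule lay above 0, with POFUT2 at 0.43 (limma adjusted p = 0.183). POFUT1 and B3GALNT2 lay only just above 0, at 0.00087 and 0.012. UGCG, the glucosylceramide synthase that supplies B4GALT5 and B4GALT6, was at 121 ± 11.9 and 137 ± 21.3 FPKM (SD, n = 3 each), with overlap. The 4 tested sialidases and sialic acid modifiers were split, with CASD1 at 0.58 (limma adjusted p = 0.155), and of 11 genes around the conserved oligomeric Golgi complex 4 lay above 0, with COG5 at 0.55 (limma adjusted p = 0.034) among chromosome 7 neighbours at 0.49.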

How the data were processed

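Total RNA was sequenced from 3 shControl and 3 shEphexin1 libraries. The authors mapped reads to GRCh37/hg19 with TopHat2 2.0.13 and deposited FPKM per gene, estimated with Cufflinks 2.2.1. The annotation they used is not given in the sources used here. FPKM divides by length and mapped fragments, so a few abundant genes can shift all others, and it keeps no depth. The deposited table was used as it stands, with no column left over. Groups came from the sample titles. One marker gene used to check the cell line is not reported here.

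Genes at 0.1 FPKM or more in at least 3 of 6 libraries (16020 of 26255) were fitted with limma 3.58.1 in R 4.3.3 on log2(FPKM + 0.1), with the intensity trend and no covariate, and p-values were adjusted by Benjamini-Hochberg over all of them. The fit was tested on simulated data. Single values were also compared by a two-sided exact permutation test. Positions and overlaps came from GENCODE lifted to GRCh37, and tables were handled in Python 3.11.15 with pandas 2.3.3. The alternatives changed the pseudocount, filter, scaling, moderation, thresholds, replicate block, replicate 2 term, GC and length correction, neighbour subtraction and each library in turn.

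The members, roles and pathway lists were chosen with earlier results of these data known. Genes described in full were those called, those with an adjusted p up to 0.05, those with a fold of at least 2 and no overlap, and the highest of each role. In the other lists these were genes whose adjusted p did not exceed 0.025 and the largest change of each list. GALNT1, GALNT2, GALNT4, GALNT7, GALNT11, GALNT16, C1GALT1, GCNT3, MGAT1, MGAT2, MGAT3, MGAT5, B3GNT9, FUT4, FUT8, FUT9, ST3GAL5, ST6GAL1, ST6GALNAC3, ST6GALNAC5, ST8SIA1, ST8SIA6, UAP1 and UGCG were added after their values were seen.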

Additional observations from a re-analysis of the deposited data

How the results depend on the processing

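The count of 3 called glycosyltransferase genes became 5 without the intensity trend (GALNT12 and GCNT1 added), 4 with quantile normalization, the replicate block, the replicate 2 term, either GC and length correction or an adjusted p of 0.05 (GCNT1 added) and 4 with no fold threshold (B4GALT1 added). ST8SIA5 was lost with a pseudocount of 1 FPKM (log2 fold change -0.97), with no filter (limma adjusted p = 0.0258) and with the neighbour median subtracted. Leaving out single libraries gave 0 to 3 calls. The pathway lists held 0 calls under every fit, and 1 (CMAS) with no fold threshold. Over all genes, 303 calls became 139 with a pseudocount of 1 FPKM, 556 with the replicate block, 564 with the replicate 2 term, 555 with GC and length correction, 545 with that correction and the block, 464 at an adjusted p of 0.05, 546 with no fold threshold, and 61 to 316 without single libraries. The share of calls that were higher went from 143 of 303 to 309 of 556 with the block.

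The replicate numbers were not taken as pairs. Deviations from the group means correlated between libraries of the same number at 0.09, 0.43 and 0.33 across genes, not all above 0.1, although each library correlated best with its own number. The block made 4 calls among the glycosyltransferase genes, GALNT6, GALNT18, ST8SIA5 and GCNT1.

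Some estimates that were not called changed sign. Most were small, but C1GALT1 and GALNT1 stood at -0.41 and -0.39 in the fit without a covariate. With the neighbour median subtracted, B4GALT5 was at 0.12, C1GALT1 at 0.058, FUT11 at 0.19, GALNT1 at 0.096 and GALNT10 at 0.044. FUT11 was at 0.021 with quantile normalization, 0.017 in replicates 1 and 3 alone and 0.0074 with GC and length correction with or without the block, and ran from -0.17 to 0.074 without single libraries. GALNT10 was at 0.046 with quantile normalization and 0.030 in replicates 1 and 3 alone, and ran from -0.072 to 0.068 without single libraries. MGAT4B ran from -0.37 to 0.0079 without single libraries. ST3GAL2 was at -0.031 with GC and length correction with or without the block, and ran from -0.10 to 0.23 without single libraries. The cause was not tested. The other 609 values of named genes kept their direction and side of the threshold, 9 gained a call and 17 lost it. GCNT1, GALNT12, MGAT3 and ST6GALNAC5 could not be tested with a filter of 1 FPKM. The 3 replicates a group, the unknown depth, and FPKM steps below 0.3 limit what can be read for the lowest genes.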
